A study of Mus musculus with 21 samples.

Results

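Selected for description were 10 genes known for their abundance in hematopoietic stem cells (HSCs) of old mice: Selp, Jam2, Neo1, Clu, Aldh1a1, Nupr1, Plscr2, Gem, Arap3 and Plac8. They were found by symbol among the 21000 rows of the gene count table, and each symbol matched 1 row. Some of the 10 were chosen by their higher counts after 5-fluorouracil (5-FU) in these same libraries, so every 5-FU against PBS value of the 10 genes below is a description without a test. The question was whether HSCs at day 21 after 1 or 3 administrations of 5-FU approached the level of each gene in old HSCs.

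RNA-seq was performed on HSCs of wild-type mouse bone marrow, sorted as lineage-negative, Sca-1-positive, c-Kit-positive cells that carried CD150 and lacked CD48, with 3000 to 3500 cells per library and 3 libraries in each of 7 groups. Per the methods, HSCs of wild-type mice were in general also defined as lacking Flt3. Mice that were 10 weeks old at the start received 5-FU (150 mg/kg, intraperitoneally) or PBS either 1 time or 3 times at intervals of 21 days. HSCs were taken at day 6 after PBS (PBS-1 d6 and PBS-3 d6) and at day 6 and day 21 after 5-FU (5FU-1 d6, 5FU-1 d21, 5FU-3 d6 and 5FU-3 d21). The old HSCs were untreated and came from mice of 2 years of age. No PBS group was taken at day 21, the groups with 3 administrations were older at sampling than those with 1, and the sort after 5-FU at day 6 used a gate widened to cells with dim c-Kit, with the Mac-1 antibody omitted, so that time, age and gate cannot be told apart from the treatment in the comparisons they touch. The libraries of a group came from separate experiments, per the methods.

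HSCs are the self-renewing cells at the top of blood formation. They normally divide rarely, and 5-FU, which kills dividing blood cells, drives them to proliferate before they return to rest. With age, HSCs become more numerous, give rise to more myeloid and platelet-forming cells and repopulate a host less well, and they carry more transcripts of several surface and stress proteins.

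Total counts ran from 22184885 to 38649033 per library (median 26962256), so that 3 counts corresponded to between 0.0850 and 0.128 CPM (a gene's share of the library's counts, scaled to a common library size), and levels are given as CPM after TMM normalization. All 12 HSC markers examined (Kit, Ly6a, Slamf1, Procr and others) were detected in every group, with summed levels of 3743 to 5978 CPM, whereas 9 lymphoid markers together stayed at or below 9.21 CPM, with Rag1 at 0 in every group. In the old HSCs, 7 erythroid markers summed to 50.4 to 104 CPM against 22.5 to 37.5 CPM in the PBS-treated groups, 10 megakaryocyte and platelet markers to 297 to 370 CPM against 219 to 268 CPM, and 3 multipotent progenitor markers (Cd48, Flt3 and Cd34) to 265 to 317 CPM against 322 to 463 CPM. In each of these 3 lists no marker was at 0 in old HSCs, and the part of such cells in the results below was not tested. In all 3 libraries of old HSCs the 4 Y-linked genes examined (Ddx3y, Uty, Kdm5d and Eif2s3y) had 0 counts, while they summed to between 176 and 288 CPM in the 18 other libraries. The age and the sex of the old mice therefore cannot be told apart in any comparison with old HSCs; the mice of the study were of both sexes, and the labels give none. Also, 6 libraries (PBS-1 d6 and 5FU-1 d6) carry a suffix in their column names that the other 15 lack and whose meaning is not stated, and a difference between old and PBS-1 d6, PBS-3 d6 and PBS-1 d6, or 5FU-1 d21 and PBS-1 d6 cannot be told apart from it.

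Of the 10 genes, Selp, Neo1, Nupr1 and Jam2 had their highest mean level in old HSCs, and its difference from day 21 after 3 administrations of 5-FU did not pass the test. With 3 libraries per group, a missed threshold does not show equal levels. For Nupr1 and Jam2 all old libraries were above those of day 21, and Jam2 lay nearer to PBS-3 d6 (0.13 in mean log2 level) than to old HSCs (0.88). These genes were picked by the missed threshold after the values were seen. The 250 bases upstream of the start sites of Selp, Neo1 and Nupr1 are shown, while Jam2 had no match in the promoter table. The sequences are from RefSeq (GRCm38.p6), and upstream windows of 5 of the 10 genes were taken from it here. Selp, for P-selectin, has its window at chr1:164115014-164115263 on the + strand. Neo1, for neogenin, has it at chr9:59036442-59036691 on the - strand, and Nupr1, for a small stress-induced nuclear protein, at chr7:126625471-126625720 on the - strand. Capitals mark matches, on either strand, to the CCAAT box (its own letters), to the GC box (GGGCGG) and to the AP-1 site (TGANTCA). The TATA box (TATAAA), the GATA site (AGATAA) and the cyclic AMP response element (TGACGTCA) were also searched and had no match.
Selp: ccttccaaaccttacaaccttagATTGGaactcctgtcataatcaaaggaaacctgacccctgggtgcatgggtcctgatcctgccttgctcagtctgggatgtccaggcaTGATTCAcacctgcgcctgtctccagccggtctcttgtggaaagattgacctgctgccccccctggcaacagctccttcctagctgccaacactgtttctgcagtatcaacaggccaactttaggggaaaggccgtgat
Neo1: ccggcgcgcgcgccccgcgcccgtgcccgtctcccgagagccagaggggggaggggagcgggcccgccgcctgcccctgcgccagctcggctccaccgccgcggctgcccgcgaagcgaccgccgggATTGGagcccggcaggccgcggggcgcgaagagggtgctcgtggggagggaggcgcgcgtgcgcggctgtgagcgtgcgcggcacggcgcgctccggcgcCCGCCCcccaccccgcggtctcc
Nupr1: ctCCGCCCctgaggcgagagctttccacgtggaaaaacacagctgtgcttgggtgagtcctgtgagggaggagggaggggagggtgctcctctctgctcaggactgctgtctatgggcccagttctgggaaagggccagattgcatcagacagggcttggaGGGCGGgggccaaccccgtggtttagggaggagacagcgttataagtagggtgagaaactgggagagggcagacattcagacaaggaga
The Selp window held CCAAT starting at position -227 and an AP-1 site at -139, counted from the start site, the Neo1 window CCAAT at -123 and a GC box at -23, and the Nupr1 window GC boxes at -248 and -89. No motif was shared by all 3 windows. Of 32851 such windows of the mouse table, 33.8% held a CCAAT box, 32.7% a GC box, 6.75% an AP-1 site, 12.4% a TATA box, 9.99% a GATA site and 1.55% a cyclic AMP response element. None of the 6 motifs overlapped another in the windows shown.

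Old HSCs had the highest mean level of 7 of the 10 genes: Selp, Jam2, Neo1, Clu, Aldh1a1, Nupr1 and Plscr2. Of the other 3, Gem was highest at day 6 after 1 administration of 5-FU, Arap3 at day 6 after 3 administrations and Plac8 at day 21 after 3 administrations, and Arap3 had its lowest mean level in old HSCs. All 10 genes passed the filter on low counts, and all were tested in 1 fit of all 21 libraries. Against PBS-1 d6, 8 of the 10 genes were higher in old HSCs and 0 lower (edgeR's quasi-likelihood test, adjusted p under 0.05 over 13571 genes; 1 lower at an unadjusted p under 0.05 and 0 with DESeq2), where 1.64% of all genes tested were called higher and 0.744% lower. Against PBS-3 d6, whose mice were closer in age to the old ones, 6 were higher and 0 lower (again 1 lower unadjusted and 0 with DESeq2), where 0.612% and 0.707% of all genes were called. The median log2 fold change of the 10 genes was 1.59 in the first of these comparisons and 0.97 in the second, against medians within 0.02 of 0 over all genes tested. These comparisons share the libraries of old HSCs, and so do those with day 21. Some of the 10 genes were chosen by 5-FU against PBS, so the PBS libraries also entered the choice. The counts and adjusted p values of the 10 genes that involve a PBS group are therefore not independent of it.

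**Figure D1:**
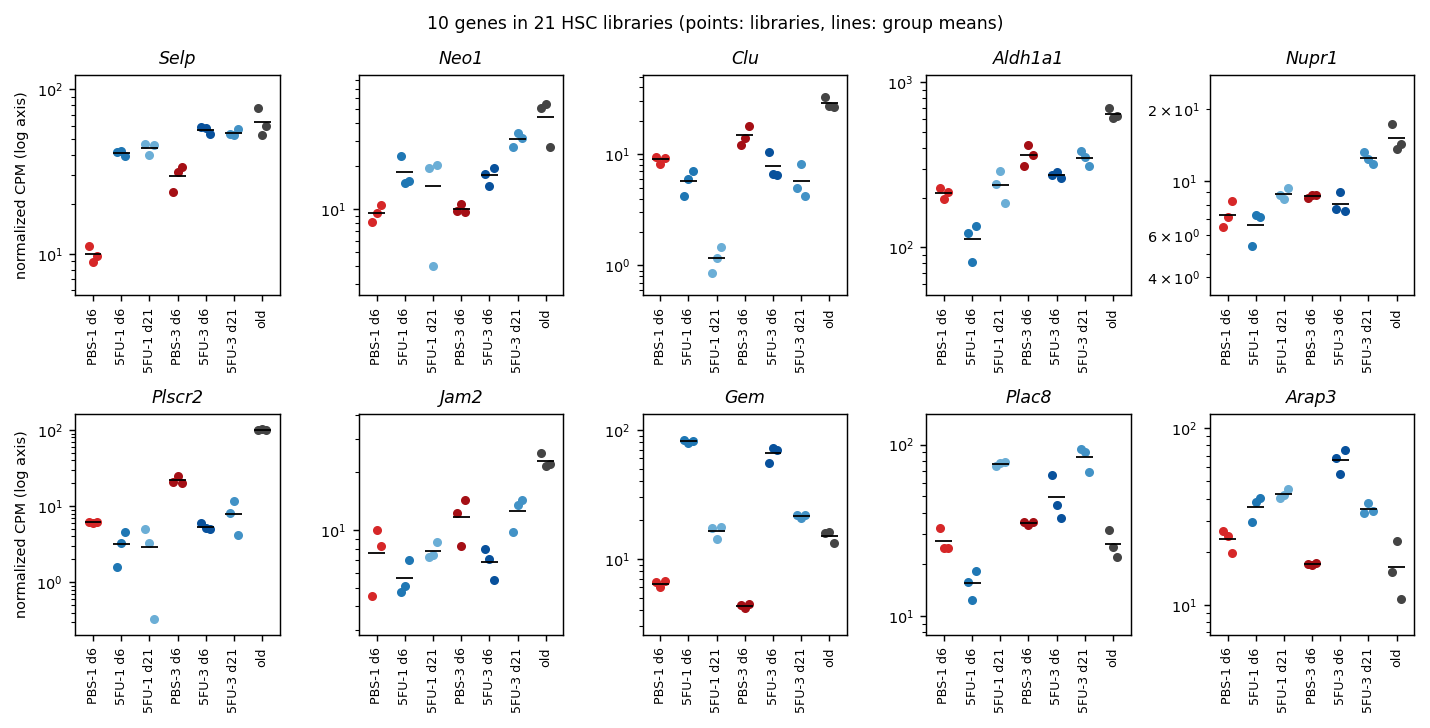
Normalized CPM (vertical, log axis) of each of the 10 genes in 21 libraries, grouped along the horizontal axis (red: PBS, blue: 5-FU, gray: old); points are libraries and lines are group means (n = 3). For Plscr2 the old libraries sit between 100 and 102 CPM, above all other groups, whereas for Gem the day 6 libraries after 5-FU, at 55.4 to 83.0 CPM, are the highest.

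**Figure D2:**
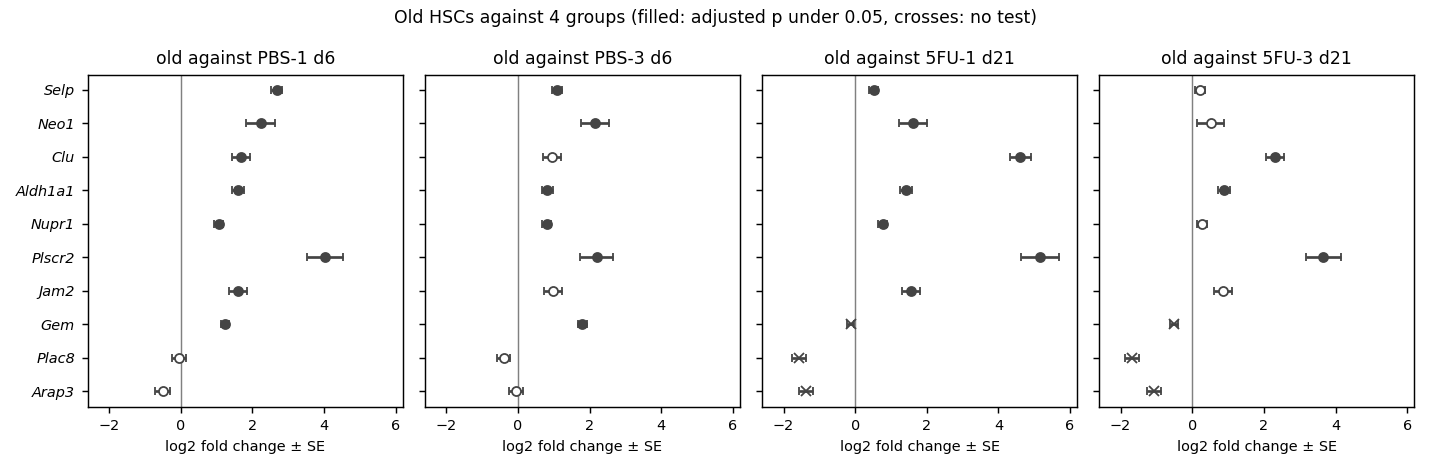
Log2 fold changes (horizontal) of old HSCs against 4 groups for the 10 genes (vertical), as points with standard errors; filled points passed an adjusted p of 0.05. Filled points to the right number 8 and 6 against the PBS groups, and 7 and 3 against day 21 after 1 and 3 administrations of 5-FU; crosses mark values below 0 against day 21, which are given without a test.

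Selp (chr1:164115264-164150026, GRCm38, + strand) encodes P-selectin, an adhesion receptor of activated platelets and endothelium that binds a glycoprotein ligand on leukocytes. Old HSCs carried it at 76.9, 52.9 and 60.2 CPM (63.3 ± 12.3, SD, n = 3). Its level was 11.2, 8.92 and 9.63 CPM in PBS-1 d6 and 23.8, 31.5 and 33.7 CPM in PBS-3 d6. Neither PBS group overlapped with the old one, and the PBS groups did not overlap with each other. At day 21, Selp stood at 46.5, 40.1 and 46.1 CPM after 1 administration of 5-FU and at 53.8, 52.5 and 57.4 CPM after 3. After 3 administrations the day 21 range reached into the old range, and after 1 it lay below it. The log2 fold change of old HSCs was 2.67 ± 0.14 (SE) against PBS-1 d6 (adjusted p = 2.55e-09) and 1.09 ± 0.13 against PBS-3 d6 (adjusted p = 0.000231). It was 0.52 ± 0.13 against day 21 after 1 administration (adjusted p = 0.0214) and 0.21 ± 0.13 against day 21 after 3 (adjusted p = 0.428). A choice of genes for high levels after 5-FU works toward small values here, so the missed threshold does not show equal levels. The call against day 21 after 1 administration was lost without old replicate 1 (adjusted p = 0.128), without 5FU-1 d21 replicate 2 (0.0884) and when only the 6 libraries compared were fitted (0.117), within a range of 0.00295 to 0.128 over 13 alternatives. Day 6 after 5-FU had Selp at 39.4 to 42.0 CPM after 1 administration and 53.4 to 58.7 CPM after 3, close to day 21 in both. In the annotation 14.1% of the exonic bases of Selp lie opposite Gm16548 and Gm16587, whose reads cannot be told apart from its own because the library kit does not mark strand. The 10 megakaryocyte and platelet markers summed to 297 to 370 CPM in old HSCs, 172 to 194 CPM and 236.6 to 249.7 CPM at day 21 after 1 and 3 administrations, and 219 to 268 CPM and 250.1 to 260.5 CPM in PBS-1 d6 and PBS-3 d6, and their part in the level of Selp was not tested.

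Jam2 (chr16:84774123-84825928, + strand) encodes junctional adhesion molecule B, which holds cells together at contacts with endothelium and stroma. Its level in old HSCs was 25.2, 21.6 and 22.0 CPM. PBS-treated HSCs had 4.56, 10.0 and 8.26 CPM after 1 administration and 12.3, 8.29 and 14.3 CPM after 3. The old libraries were above all of these, and the PBS groups overlapped. Day 21 gave 7.26, 7.38 and 8.65 CPM after 1 administration of 5-FU and 9.79, 13.6 and 14.4 CPM after 3, all within or near the PBS ranges. Jam2 was higher in old HSCs than in PBS-1 d6 (log2 fold change 1.59 ± 0.26, adjusted p = 0.00155) and than at day 21 after 1 administration (1.56 ± 0.25, adjusted p = 0.000981). Against PBS-3 d6 its log2 fold change of 0.98 ± 0.25 did not pass the test (adjusted p = 0.0650), and DESeq2 called it (adjusted p = 0.0128, range over 13 alternatives 0.0128 to 0.264). Against day 21 after 3 administrations the value of 0.87 ± 0.25 also missed the threshold (adjusted p = 0.0566), although the libraries did not overlap, and 3 of 13 alternatives called it (adjusted p from 0.0172 to 0.195).

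Neo1 (chr9:58874687-59036441, - strand) encodes neogenin, a receptor for netrins and repulsive guidance molecules. Old HSCs had 50.9, 54.9 and 27.3 CPM, with replicate 3 well below the others. PBS-treated HSCs were at 8.19, 9.44 and 10.7 CPM after 1 administration and 9.65, 10.8 and 9.53 CPM after 3. All old libraries were above both PBS groups. Day 21 after 1 administration of 5-FU was uneven, at 19.4, 3.98 and 20.4 CPM, and replicate 2, with 140 counts, was the lowest of the 21 libraries. After 3 administrations the levels were 27.3, 34.3 and 31.4 CPM, which overlapped the old range only at its low end. Against PBS-1 d6, the log2 fold change of old HSCs was 2.23 ± 0.40 (adjusted p = 0.00396), and against PBS-3 d6 it was 2.15 ± 0.40 (adjusted p = 0.00953). The second call was lost without PBS-3 d6 replicate 3 (adjusted p = 0.0540, the highest over 13 alternatives, which reached down to 2.17e-05). Against day 21 the value was 1.61 ± 0.39 after 1 administration (adjusted p = 0.0158) and 0.52 ± 0.38 after 3 (adjusted p = 0.526). The call after 1 administration was lost in 3 of 13 alternatives (without old replicate 1, 0.0556; without old replicate 2, 0.0570; only the 6 libraries compared, 0.168; range 0.00141 to 0.168).

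Clu (chr14:65968483-65981547, + strand) encodes clusterin, a secreted chaperone that binds misfolded proteins and lipids. It stood at 32.6, 27.1 and 26.5 CPM in old HSCs. In PBS-treated HSCs it was 9.41, 8.25 and 9.33 CPM after 1 administration and 12.2, 14.1 and 18.1 CPM after 3. Thus old HSCs were above PBS-3 d6, which was above PBS-1 d6, without overlap. Day 21 moved away from old HSCs: Clu was at 0.859, 1.16 and 1.46 CPM after 1 administration of 5-FU, the lowest of the 7 groups, and at 4.93, 8.22 and 4.17 CPM after 3. Both ranges lay below those of the matching PBS group. In log2 fold change, old HSCs differed by 4.61 ± 0.30 against day 21 after 1 administration (adjusted p = 2.93e-08) and 2.31 ± 0.26 against day 21 after 3 (adjusted p = 7.44e-05). Against PBS-1 d6 it was 1.67 ± 0.26 (adjusted p = 0.000974). Against PBS-3 d6 the value of 0.96 ± 0.25 did not pass (adjusted p = 0.0698), while DESeq2 (0.0161) and a fit of the 6 libraries (0.0485) called it, in a range of 0.0161 to 0.235 over 13 alternatives.

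Aldh1a1 (chr19:20492715-20643465, + strand) encodes a retinaldehyde dehydrogenase that makes retinoic acid and detoxifies aldehydes. Per kilobase of its longest transcript it had the highest level of the 10 genes, with 273 CPM per kb in old HSCs, and Plscr2 followed with 53.1 CPM per kb. The remaining 8 genes ranged there from 3.07 (Arap3) to 21.5 CPM per kb (Plac8). In CPM, Aldh1a1 was at 696, 611 and 621 in old HSCs. PBS-treated HSCs had 230, 197 and 216 CPM after 1 administration and 310, 418 and 363 CPM after 3, again in 3 ranges without overlap. At day 21 it was 242, 289 and 186 CPM after 1 administration of 5-FU and 385, 352 and 312 CPM after 3. Each of these ranges overlapped that of the matching PBS group and lay below the old one. Old HSCs were higher than PBS-1 d6 (log2 fold change 1.58 ± 0.17, adjusted p = 3.20e-05) and than PBS-3 d6 (0.82 ± 0.16, adjusted p = 0.0145). The latter call was lost without old replicate 1 (0.0641), PBS-3 d6 replicate 1 (0.0775) or PBS-3 d6 replicate 3 (0.0657), in a range of 0.000159 to 0.0775 over 13 alternatives. Aldh1a1 was also higher in old HSCs than at day 21 after 1 administration (1.43 ± 0.17, adjusted p = 4.99e-05) and after 3 (0.88 ± 0.16, adjusted p = 0.00452). Its paralog Aldh1a7 shares 2.19% of the 75-base stretches of Aldh1a1 transcripts, so a small part of their reads could be split between them.

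Nupr1 (chr7:126623249-126630861, - strand) encodes a small chromatin-associated protein induced by cellular stress. Old HSCs had 17.3, 13.7 and 14.3 CPM. The PBS groups were at 6.45, 7.13 and 8.26 CPM after 1 administration and 8.52, 8.78 and 8.75 CPM after 3. All old libraries were above them. At day 21 Nupr1 stood at 8.75, 8.44 and 9.39 CPM after 1 administration of 5-FU, beside PBS-3 d6, and at 13.3, 12.4 and 11.8 CPM after 3, between PBS-3 d6 and old HSCs. Old HSCs had a log2 fold change of 1.05 ± 0.14 against PBS-1 d6 (adjusted p = 0.000274) and 0.80 ± 0.13 against PBS-3 d6 (adjusted p = 0.00542). It was 0.77 ± 0.13 against day 21 after 1 administration (adjusted p = 0.00178). Against day 21 after 3 administrations it was 0.27 ± 0.13, which did not pass the test (adjusted p = 0.299), although the highest day 21 library, at 13.3 CPM, was below the lowest old one.

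Plscr2 (chr9:92275602-92297752, + strand) encodes a member of the phospholipid scramblase family of membrane proteins. It separated old HSCs from the rest most widely, at 101, 102 and 100 CPM. PBS-1 d6 had 6.23, 5.97 and 6.29 CPM and PBS-3 d6 had 21.0, 24.8 and 20.3 CPM, so repeated PBS stood between PBS-1 d6 and old HSCs. Day 21 was lower: 5.08, 3.27 and 0.327 CPM after 1 administration of 5-FU, where replicate 3 had 11 counts, and 8.03, 11.8 and 4.17 CPM after 3. Neither day 21 group overlapped its own PBS group, and both lay below it. The log2 fold change of old HSCs was 4.03 ± 0.50 against PBS-1 d6 (adjusted p = 0.000192), 5.16 ± 0.54 against day 21 after 1 administration (adjusted p = 1.80e-05) and 3.66 ± 0.49 against day 21 after 3 (adjusted p = 0.000305). Against PBS-3 d6 it was 2.19 ± 0.45 (adjusted p = 0.0189). Leaving out any 1 of the 6 libraries compared ended this last call, with adjusted p between 0.0583 and 0.0950, and over all 13 alternatives it ran from 0.000259 to 0.0950. The fitted spread is shared by all 21 libraries, and the 3 old libraries themselves differed by a SD of 1.2 CPM.

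Gem (chr4:11704457-11714752, + strand) encodes a small GTP-binding protein that restrains voltage-gated calcium channels. Old HSCs had 15.9, 16.1 and 13.2 CPM, above the 6.56, 6.04 and 6.68 CPM of PBS-1 d6 and the 4.40, 4.13 and 4.44 CPM of PBS-3 d6. At day 6 after 5-FU, in the widened sort gate, it was at 83.0, 79.5 and 81.2 CPM after 1 administration and 55.4, 71.9 and 69.1 CPM after 3, far above every other group. It was lower again at day 21, with 17.4, 14.2 and 17.7 CPM after 1 administration and 21.8, 20.9 and 21.9 CPM after 3. The first of these overlapped old HSCs and the second was above them. Gem was higher in old HSCs than in PBS-1 d6 (log2 fold change 1.23 ± 0.11, adjusted p = 4.24e-06) and PBS-3 d6 (1.80 ± 0.11, adjusted p = 2.17e-08). Against day 21 its log2 fold change in old HSCs was -0.13 ± 0.11 after 1 administration and -0.51 ± 0.11 after 3, given without a test because Gem was high after 5-FU and the genes were chosen in part for that.

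Arap3 (chr18:37972628-37998969, - strand) encodes a GTPase-activating protein for small GTP-binding proteins that acts downstream of phosphoinositide 3-kinase. In old HSCs it was at 15.4, 23.1 and 10.9 CPM, no higher than the 26.3, 24.5 and 19.8 CPM of PBS-1 d6 or the 17.1, 16.8 and 17.2 CPM of PBS-3 d6. The old range overlapped both. Day 21 was higher, at 40.5, 42.0 and 45.4 CPM after 1 administration of 5-FU and 33.0, 37.5 and 33.9 CPM after 3. Day 6 reached 29.5 to 40.3 CPM after 1 administration and 55.2 to 75.3 CPM after 3. Every 5-FU library was thus above every old and PBS library. The log2 fold change of old HSCs was -0.51 ± 0.20 against PBS-1 d6 (adjusted p = 0.227), and without old replicate 2 it was -0.85 and passed (0.0134, range over 13 alternatives 0.0134 to 0.581). Against PBS-3 d6 it was -0.05 ± 0.20 (adjusted p = 0.980). Against day 21 the values were -1.37 ± 0.20 after 1 administration and -1.08 ± 0.20 after 3, without a test for the same reason. Known for a rise with age, Arap3 did not show one in this series.

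Plac8 (chr5:100553725-100572245, - strand) encodes a small cysteine-rich protein of myeloid and progenitor cells. Its level in old HSCs was 31.7, 25.2 and 22.1 CPM, beside 32.4, 24.8 and 25 CPM in PBS-1 d6 and just below the 35.2, 33.8 and 35.5 CPM of PBS-3 d6. Day 21 was the highest time, with 75.2, 78.5 and 78.7 CPM after 1 administration of 5-FU and 94.5, 90.5 and 69.0 CPM after 3. All 6 day 21 libraries lay above all old and PBS libraries. At day 6 the level was 15.8, 12.4 and 18.2 CPM after 1 administration, below PBS-1 d6, and 66.1, 44.6 and 37.3 CPM after 3, above PBS-3 d6. Old HSCs did not differ by the test from PBS-1 d6 (log2 fold change -0.06 ± 0.19, adjusted p = 0.944) or PBS-3 d6 (-0.40 ± 0.19, adjusted p = 0.429). Against day 21 the values were -1.56 ± 0.19 after 1 administration and -1.69 ± 0.19 after 3, again without a test. The 13 myeloid markers summed to 101 to 132 CPM in old HSCs, 105 to 190 CPM at day 21 after 1 administration and 119 to 152 CPM after 3, and their part in the level of Plac8 was not tested.

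Across the 10 genes, old HSCs were higher than day 21 after 1 administration of 5-FU for 7 genes, where 4.05% of all genes tested were called higher. Against day 21 after 3 administrations 3 genes were higher (Clu, Aldh1a1 and Plscr2), where 2.60% of all genes were called higher. Gem, Arap3 and Plac8 had values below 0 in both comparisons. The choice of the genes drew in part on the 5-FU libraries that enter these comparisons, so these counts and the adjusted p values against day 21 are not independent of the choice. Genes chosen for high levels after 5-FU give smaller values of old HSCs against day 21. A missed threshold there, as for Selp, Neo1 and Nupr1 after 3 administrations, does not show equal levels. The median log2 fold change of old HSCs over the 10 genes was 1.10 against day 21 after 1 administration and 0.39 after 3. On mean log2 levels, day 21 lay nearer to old HSCs than to its own PBS group for 2 of 10 genes after 1 administration (Selp and Gem). After 3 administrations it did so for 4 of 10 (Selp, Neo1, Nupr1 and Gem). Both counts also depend on the choice of the genes, and the share of all genes nearer to old HSCs was not computed. With PBS-3 d6 as the reference after 1 administration the count was again 2, and after 3 administrations PBS-3 d6 is already the own PBS group. For Clu and Plscr2, day 21 lay on the far side of PBS from old HSCs, and for Plac8 and Arap3 it was above PBS by all 6 libraries while old HSCs were not.

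**Figure D3:**
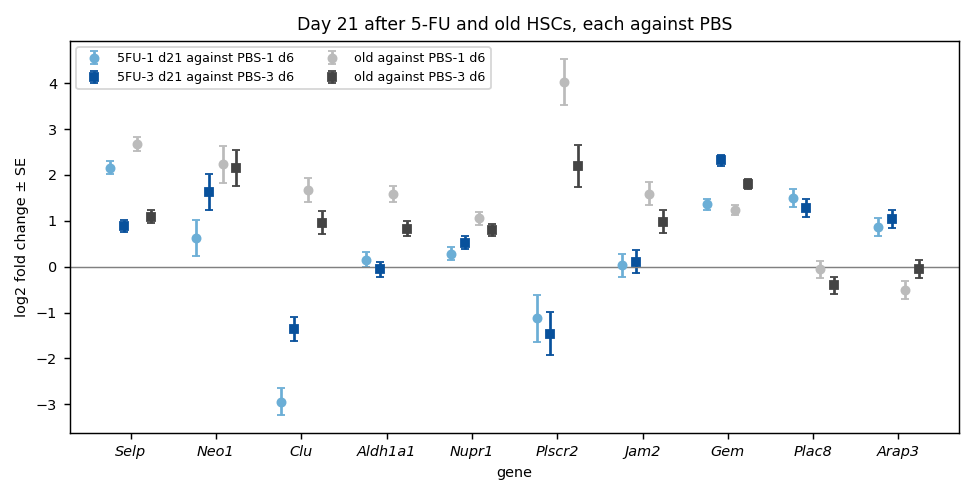
Log2 fold changes (vertical, with standard errors) of day 21 after 5-FU (blue) and of old HSCs (gray), each against PBS-1 d6 (circles) or PBS-3 d6 (squares), for each gene (horizontal). Blue and gray points lie on the same side of 0 in both pairs for Selp, Neo1, Nupr1, Jam2 and Gem. The blue points of Jam2 are within their standard errors of 0. On opposite sides in both pairs are Clu, Plscr2, Plac8 and Arap3. Blue points lie above gray ones in both pairs for Plac8, Arap3 and Gem.

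Serial administration was compared directly at day 21. Of the 10 genes, 9 had a higher fitted level after 3 administrations than after 1, with a median log2 fold change of 0.52, but Clu alone passed the test (2.30 ± 0.29, adjusted p = 0.00190), which gives 1 of 10 genes higher and 0 lower (0 lower also unadjusted and with DESeq2), where 0.0811% of all genes were called higher and 0.0368% lower. The call of Clu was lost when only those 6 libraries were fitted (adjusted p = 0.232, range 1.23e-10 to 0.232). For 7 of the genes the libraries after 3 administrations were all above those after 1: Selp, Jam2, Neo1, Clu, Aldh1a1, Nupr1 and Gem, where 6.47% of all genes tested were separated in that direction. The log2 fold change was 1.10 ± 0.39 for Neo1 (adjusted p = 0.414), 0.50 ± 0.13 for Nupr1 (0.255) and 0.30 ± 0.13 for Selp (0.506). DESeq2 also called Nupr1 (0.0292, range 0.0292 to 0.573). The groups differ in age as well as in the number of administrations, which cannot be told apart. The PBS groups differ in both and in the suffix of their column names: PBS-3 d6 was above PBS-1 d6 for 8 of 10 genes in fitted level, with a median of 0.48, Neo1 being at 0.08 ± 0.40. Selp was the 1 gene called there (1.58 ± 0.14, adjusted p = 2.66e-05, lost with only the 6 libraries at 0.0741, the highest of a range from 6.32e-24), with 0 lower (2 unadjusted, 1 with DESeq2), where 0.118% of all genes were called higher and 0.0221% lower. Not passing were Plscr2 (1.84 ± 0.47, adjusted p = 0.138) and Aldh1a1 (0.76 ± 0.16, adjusted p = 0.0810), whose libraries did not overlap, and Gem, which had the lower value in PBS-3 d6 (-0.57 ± 0.12, adjusted p = 0.0738).

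Against PBS, the values at day 21 are given as a description, because they took part in the choice of the genes. After 1 administration the log2 fold changes were 2.16 for Selp, 1.5 for Plac8, 1.36 for Gem, 0.86 for Arap3, 0.62 for Neo1 and -2.94 for Clu. With PBS-3 d6 as the control, an alternative chosen after seeing the data because its column names lack the suffix, Selp was at 0.57, Plac8 at 1.15, Gem at 1.93, Arap3 at 1.32 and Clu at -3.65. After 3 administrations the values were 2.31 for Gem, 1.63 for Neo1, 1.28 for Plac8, 1.03 for Arap3, 0.88 for Selp and -1.35 for Clu. Plscr2 had -1.12 ± 0.51 after 1 administration and -1.46 ± 0.46 after 3, Nupr1 0.28 ± 0.14 and 0.52 ± 0.13, Aldh1a1 0.16 ± 0.16 and -0.05 ± 0.16, and Jam2 0.03 ± 0.25 and 0.11 ± 0.25.

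Day 6, when HSCs are in cycle after 5-FU and the sort gate was widened, gave another order. As log2 fold changes against PBS-1 d6, again without a test, Gem was at 3.66, Selp at 2.05, Arap3 at 0.61, Plac8 at -0.83 and Aldh1a1 at -0.93 after 1 administration. After 3 administrations, against PBS-3 d6, Gem was at 3.92, Arap3 at 1.96, Selp at 0.94, Jam2 at -0.77, Clu at -0.91 and Plscr2 at -2.04. Aldh1a1 was at 123, 81.7 and 134 CPM after 1 administration, the lowest of its 7 groups, and at 274, 285 and 262 CPM after 3. Clu was at 4.20 to 7.08 CPM and 6.52 to 10.4 CPM, Plscr2 at 1.6 to 4.52 CPM and 4.96 to 6.00 CPM, and Jam2 at 4.75 to 7.0 CPM and 5.47 to 7.97 CPM. All of these lay below the old libraries. Neo1 was at 23.7, 15.1 and 15.8 CPM after 1 administration and 17.7, 14.5 and 19.5 CPM after 3, above both PBS groups, and Nupr1 at 5.38 to 7.22 CPM and 7.54 to 9.04 CPM, each overlapping its own PBS group. In a bulk library, fewer cells with a transcript and less of it per cell cannot be told apart.

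In each gene's order of the 7 group means, the neighbors often overlapped. Old HSCs stood first without overlap with the next group for Clu, Aldh1a1 and Plscr2 (next PBS-3 d6) and for Nupr1 and Jam2 (next 5FU-3 d21). Of all genes tested, 8.24% were separated with old HSCs above PBS-3 d6 and 11% with old HSCs above 5FU-3 d21. For Selp, the ranges of old HSCs, 5FU-3 d6 and 5FU-3 d21 overlapped in turn, and for Neo1 old HSCs overlapped 5FU-3 d21. The highest group mean was 34.9 times the lowest for Plscr2, 24.8 times for Clu, 18.8 times for Gem, 6.39 times for Selp, 5.70 times for Aldh1a1 and 5.48 times for Plac8. It was 4.70 times for Neo1, 4.08 times for Jam2, 4.02 times for Arap3 and 2.30 times for Nupr1.

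Families and partners of the 10 genes, 23 genes in a list made with earlier results of these data known, were examined beside them. The list holds adhesion molecules and a selectin ligand, netrins and their receptors, aldehyde dehydrogenases, scramblases, junctional adhesion molecules and relatives of Gem, Nupr1 and Arap3, of which 16 had counts enough to be tested. Against PBS-3 d6, 0 of 16 passed the test in old HSCs (edgeR, Benjamini-Hochberg), against 8 at an unadjusted p under 0.05 (4 in each direction) and 2, both higher, with DESeq2, where 0.612% of all genes were called higher and 0.707% lower. Against PBS-1 d6, where 1.64% of all genes were called higher, 4 were, among them Ntn4, a netrin (2.68 ± 0.57, adjusted p = 0.0151), Aldh1a7 (1.26 ± 0.29, adjusted p = 0.0269) and Plscr1 (0.45 ± 0.10, adjusted p = 0.0174). Against day 21, 4 were higher and 3 lower in old HSCs after 1 administration (4.05% and 3.43% of all genes), and 0 were higher (4 unadjusted, 3 with DESeq2) and 2 lower after 3, Plscr3 (-0.38 ± 0.07, adjusted p = 0.00524) and Arap1 (-0.28 ± 0.08, adjusted p = 0.0429), where 2.60% and 1.86% of all genes were called. The named genes were singled out after their values were seen, and the counts and adjusted p values of this list are not independent of its choice.

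Another 27 genes known to be higher in old HSCs, also listed with earlier results known, gave a wider view, and all were tested. The counts and adjusted p values of this list are not independent of that choice. In old HSCs 13 of 27 rose against PBS-1 d6 and 7 against PBS-3 d6 (1.64% and 0.612% of all genes), and 0 fell in either, also unadjusted or with DESeq2, with median log2 fold changes of 1.30 and 0.73. Among the 7 that passed, the largest changes against PBS-3 d6 were those of Sbspon, a matrix protein (3.52 ± 0.74, adjusted p = 0.0217), Enpp5, a nucleotide pyrophosphatase family member (1.2 ± 0.12, adjusted p = 2.21e-05), Mt1, a metal-binding metallothionein (1.03 ± 0.25, adjusted p = 0.0470), and Vwf, the clotting protein von Willebrand factor of platelets and endothelium (0.91 ± 0.12, adjusted p = 0.00101). Against day 21, 19 of 27 were higher in old HSCs after 1 administration and 15 after 3 (4.05% and 2.60% of all genes), with 0 lower, also unadjusted or with DESeq2, and medians of 1.5 and 1.13. At day 21 after 5-FU, 0 rose and 3 fell against PBS-1 d6 after 1 administration (Mmrn1 -0.71 ± 0.09, Cavin2 -0.66 ± 0.14 and Fhl1 -0.56 ± 0.11), and 0 rose and 2 fell against PBS-3 d6 after 3 (Alcam -0.83 ± 0.18 and Mmrn1 -0.58 ± 0.09). Over all genes, 0.928% were called higher and 0.965% lower after 1 administration and 0.494% and 0.870% after 3, so that a count of 0 higher of 27 is near the background. At an unadjusted p under 0.05, 1 of 27 was higher in each of these comparisons, and 0 with DESeq2, and the medians were -0.40 and -0.35. At day 6, 2 rose and 9 fell after 1 administration, and 0 rose (2 unadjusted, 0 with DESeq2) and 10 fell after 3, where 10.9% of all genes were called higher and 9.01% lower after 1 administration and 12.2% and 9.49% after 3. Between day 21 after 3 and after 1 administration, Vwf passed (0.75 ± 0.13, adjusted p = 0.0191), and 23 of 27 genes had a value above 0 (median 0.37). From PBS-1 d6 to PBS-3 d6, 23 of 27 were also above 0 (median 0.43), and 0 passed (8 higher and 0 lower unadjusted, 3 higher with DESeq2). Slamf1 of this list is also among the HSC markers, and Vwf and Itgb3 among those of megakaryocytes.

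**Figure D4:**
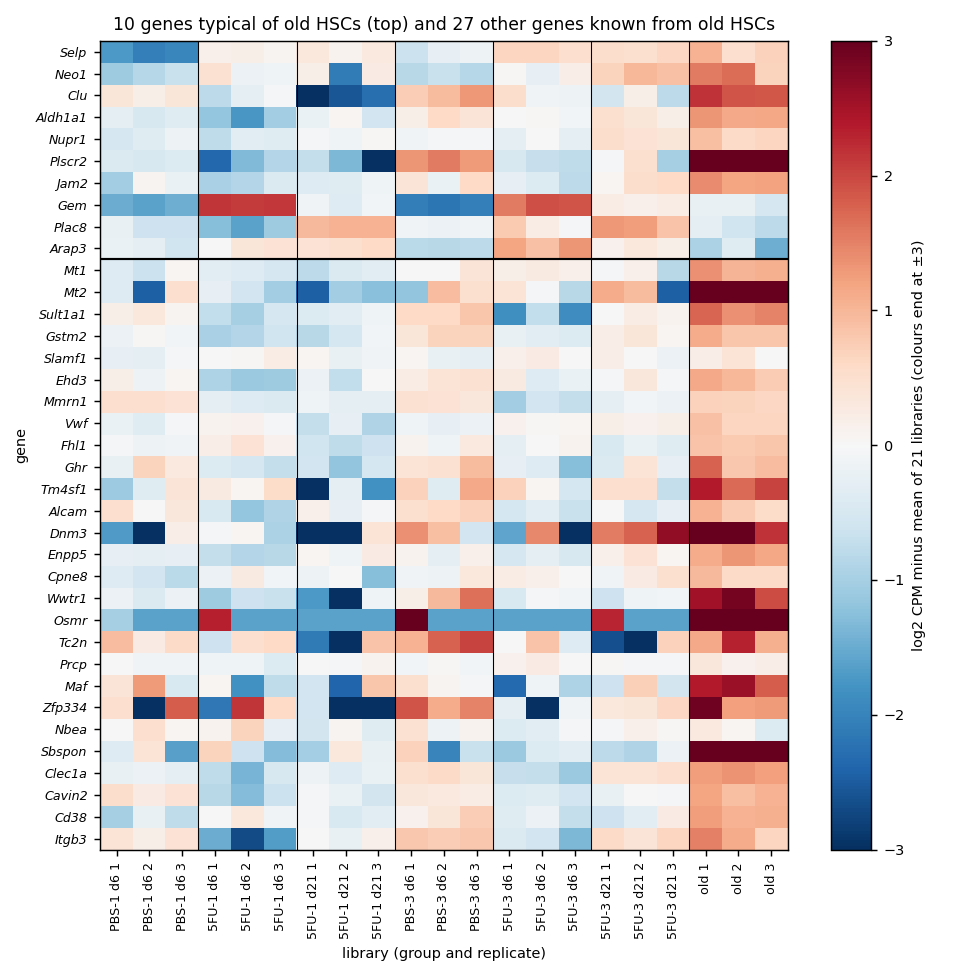
Log2 CPM of each gene minus its mean over 21 libraries (color, ending at ±3), for the 10 genes (above the line) and 27 other genes known from old HSCs (below it), in all libraries by group. All 3 old columns are above the mean for 7 of the 10 and 25 of the 27 genes, all 3 columns of day 21 after 1 administration for 3 (Selp, Plac8 and Arap3) and 0, and those after 3 administrations for 8 and 7. The 8 include Gem, Arap3 and Plac8, which were not highest in old HSCs. These counts depend on the choice of the genes, and the share of all genes was not computed.

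For the 10 genes except Selp, the genes with the most similar pattern were found by the root mean square difference of centered log2 CPM over the 21 libraries, given as a description. The nearest were Enpp5 for Jam2 (0.33), Zfp57 for Neo1 (0.66), Gkn3 for Clu (0.60), Aldh1a7 for Aldh1a1 (0.28), H2-Q7 for Nupr1 (0.22), Matn4 for Plscr2 (0.81), Ccnd1 for Gem (0.73), B3gnt7 for Arap3 (0.38) and Lat2 for Plac8 (0.30). The second nearest were Clec1a, Cysltr2, Epdr1, Cdkn2c, H2-Q10, Myl10, Sh3bgrl2, Sh3pxd2b and Mrgpre, in the same order. Matn4, for a matrix protein, was at 25 ± 5.24 CPM in old HSCs, 12.3 ± 1.74 in PBS-3 d6, 2.23 ± 0.87 in PBS-1 d6 and 1.44 ± 1.63 at day 21 after 1 administration, as Plscr2 went. Ccnd1, for cyclin D1, was at 97.4 ± 9.61 CPM at day 6 after 1 administration of 5-FU, 20.5 ± 3.88 in PBS-1 d6 and 29.2 ± 1.67 in old HSCs. Lat2, for an adaptor of immune receptor signaling, was at 42.7 ± 9.66 and 44.2 ± 6.70 CPM at day 21 after 1 and 3 administrations and 17.5 ± 0.32 in old HSCs. Among the 10 genes themselves, the closest were Nupr1 and Jam2 (0.40), Aldh1a1 and Jam2 (0.46) and Aldh1a1 and Nupr1 (0.48).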

How the data were processed

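RNA-seq had been performed on 21 libraries of sorted HSCs (SMART-Seq v4 and Nextera XT kits, single-end reads of 75 bases). Per the methods of the authors, reads were mapped to mm10 with TopHat (2.0.13) and quantified with Cuffdiff (Cufflinks 2.2.1); the deposited table holds whole-number counts per gene symbol, not normalized, and which tool counted them, and whether strand was used, is not given in the sources used here. Columns were assigned to samples by their names.

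Genes were filtered with filterByExpr, normalized by TMM and tested with edgeR (4.0.16, R 4.3.3) by the quasi-likelihood test in 1 fit of all 21 libraries, with Benjamini-Hochberg adjustment over 13571 genes and a threshold of 0.05. SEs were derived from the F statistic. The 10 genes and all lists were chosen with earlier results of these data known, and some of the 10 were chosen by 5-FU against PBS, which was therefore not tested for them. Values of old HSCs below day 21 are given without a test for the same reason. This split by sign was made with the values known. Named besides the 10 were the 2 genes nearest to each in pattern (log2 CPM with a prior count of 2), genes of 2 lists by the largest called change in old HSCs against PBS-3 d6, and genes singled out after their values were seen. A gene that these rules also named is not reported here. Positions are from GENCODE (GRCm38). The fit was tested on simulated data for old against PBS-3 d6 (13359 genes, 198 changed): 66.7% of genes changed 2-fold and 83.8% of those changed 4-fold were recovered, with 5.70% false calls. Total counts of 22184885 to 38649033 set a floor of 3 counts at 0.0850 to 0.128 CPM; these cover counting error only. Alternatives were relative log expression, library size alone, other filters on low counts, the replicate number as a block, DESeq2 (1.42.0), a fit of the 6 libraries compared, each library left out in turn, and PBS-3 d6 as the control of 5FU-1 d21. Replicate libraries of a group differed by 16.8 to 37.3 times the variance of counting, so none was counted as a duplicate.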

Additional observations from a re-analysis of the deposited data

Results flagged for a closer look

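Plac8 went opposite ways at day 6 after 5-FU, where the sort gate was widened. After 1 administration all 3 libraries were below PBS-1 d6, with a log2 fold change of -0.83 (15.5 ± 2.90 against 27.4 ± 4.36 CPM), and after 3 administrations all 3 were above PBS-3 d6, with 0.50 (49.3 ± 15 against 34.8 ± 0.91 CPM; SD, n = 3). The difference between these effects was not tested. The myeloid markers summed to 61.5 to 76.8 CPM at day 6 after 1 administration, against 102 to 154 CPM in PBS-1 d6. After 3 administrations they summed to 53.4 to 77.6 CPM, against 93.4 to 126 CPM in PBS-3 d6. Their part in the level of Plac8 was not tested.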

How the results depend on the processing

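For the 10 genes, results of the comparisons other than 5-FU against PBS kept their direction and side of the threshold in 743 refits. They were lost in 20, gained in 12 and changed sign in 5, each of the last far from the threshold. These counts include Gem, Arap3 and Plac8 in old against both day 21 groups, which are given above without a test. Among the 20 were Gem and Arap3 in old against 5FU-3 d21, with only the 6 libraries compared. Over the libraries left out in turn, Plac8 in old against PBS-1 d6 ran from -0.21 to 0.076, Arap3 in old against PBS-3 d6 from -0.39 to 0.18 and Neo1 in PBS-3 d6 against PBS-1 d6 from -0.012 to 0.18. The causes were not tested. Counts of genes past the threshold moved more. DESeq2 called 696 genes against 324 in old against PBS-1 d6, 452 against 179 in old against PBS-3 d6, 1673 against 1015 in old against 5FU-1 d21, 1156 against 606 in old against 5FU-3 d21, 155 against 16 in 5FU-3 d21 against 5FU-1 d21 (2 of the 10 genes against 1), 283 against 19 in PBS-3 d6 against PBS-1 d6 (4 of the 10 genes against 1), 761 against 257 in 5FU-1 d21 against PBS-1 d6 and 671 against 185 in 5FU-3 d21 against PBS-3 d6. With only the 6 libraries compared, and so fewer residual degrees of freedom, the counts were 459 and 285 in old against 5FU-1 d21 and 5FU-3 d21, 1 (0 of the 10 genes) in 5FU-3 d21 against 5FU-1 d21, 2 in PBS-3 d6 against PBS-1 d6, and 28 and 6 in 5FU-1 d21 and 5FU-3 d21 against PBS. Leaving out 1 library at a time gave 172 to 259 (lowest without PBS-1 d6 replicate 3), 78 to 139 (3 to 5 of the 10 genes; lowest without PBS-3 d6 replicate 3), 639 to 891 (without old replicate 3) and 340 to 474 (without 5FU-3 d21 replicate 3) in old against PBS-1 d6, PBS-3 d6, 5FU-1 d21 and 5FU-3 d21. It gave 5 to 14 in 5FU-3 d21 against 5FU-1 d21, 1 to 10 in PBS-3 d6 against PBS-1 d6, 91 to 173 and 43 to 143 in 5FU-1 d21 and 5FU-3 d21 against PBS, and 1766 to 2077 of 2706 and 1888 to 2456 of 2944 at day 6 after 1 and 3 administrations. In PBS-3 d6 against PBS-1 d6, 9 genes passed with all genes of at least 1 count, and 9 with a replicate block. Same-numbered libraries of compared groups did not deviate together (mean correlations -0.04 to 0.01, and 0 of 10 comparisons had every pair over 0.1). With 3 libraries per group this cannot show whether equal numbers mark a shared experiment, and the labels do not say. The replicate block changed no call of the 10 genes. Library size alone moved the median of all genes by -0.12 in 5FU-3 d6 against PBS-3 d6.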
